A study of Mus musculus with 10 samples.

Results

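A set of 6 mouse genes, most of them retrocopies or pseudogenes, had far fewer reads in *Dis3* cKO testes than in control testes. They are *Rps18-ps6*, *Ubb-ps*, *Gm44389*, *Gm7002*, *Gm8797* and *Tktl2*, 6 of the 54232 genes counted and 6 of the 20043 that passed the filter on low counts. They were taken by name because of their low values in *Dis3* cKO, so their difference between the groups is given as a description, without a test. Among genes past the threshold (an adjusted p under 0.05) whose normalized counts averaged 50 or more over the libraries, theirs were the 6 lowest log2 fold changes. Just outside that set came *Lpl*, a lipoprotein lipase, with a log2 fold change of -2.09, the processed pseudogene *Gm8983* with -2.05 and the carbohydrate kinase gene *Fggy* with -1.64, against -2.12 for *Gm8797*, the member just inside. *Lpl* had -2.25 in replicates 1 to 3 and -1.92 in replicates 4 and 5, whereas *Gm8983* had -3.20 and -0.56, with overlapping groups, and *Fggy* -0.59 and -2.52.

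A retrocopy arises when the messenger RNA of a gene is copied back into DNA and inserted elsewhere in the genome, so that it lacks the introns and usually the promoter of its parent. Most retrocopies decay into processed pseudogenes, while a few stay intact and are transcribed, many of them in the male germ line. Because a young copy is almost identical to its parent, short reads cannot always be assigned to one or the other. DIS3 is a ribonuclease of the RNA exosome, the complex that trims and degrades many nuclear RNAs, and RNA levels were compared here after its removal from male germ cells.

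Each library was made from the testes of 1 mouse at postnatal day 4, with 5 control (genotype Dis3 WT) and 5 *Dis3* cKO (genotype Dis3 KO) mice, all of strain B6D2F1. *Dis3* cKO mice carried 1 deleted and 1 floxed *Dis3* allele and *Ddx4-Cre*, which recombines the floxed allele in germ cells only, whereas the controls were siblings. Whole testes were sequenced, so Sertoli, Leydig and other somatic cells, which carry 1 deleted allele in *Dis3* cKO, contributed to every value, and fewer germ cells and less RNA per germ cell cannot be told apart. Nor can an effect of *Dis3* be told apart from alleles of the strain of the floxed or the *Ddx4-Cre* mice that were inherited with the genotype, since counts carry no alleles.

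Gene counts per library ranged from 28538849 to 41104912. *Dis3* itself, the targeted gene, had between 4115 and 5161 normalized counts in the control libraries and between 1362 and 1709 in the *Dis3* cKO libraries. This is a fall of 1.62 ± 0.09 on the log2 scale (SE, n = 5 per group, edgeR quasi-likelihood test, adjusted p = 3.78e-07, exact permutation test of the means, two-sided, p = 0.00794, the smallest that 252 splits allow). A normalized count is a count scaled to a common library size. Libraries numbered 1 to 3 and those numbered 4 and 5 formed separate clusters, clearly in control and less so in *Dis3* cKO. There the chi-square distance per degree of freedom was 4.68 between replicates 2 and 3. Replicate 1 was at 21.4 and 26.1 from these, and at 29.1 and 32.2 from replicates 4 and 5. Deviations from the group means correlated between the clusters at -0.178 to -0.0775, and values within each cluster are given below for the 6 genes and for some others.

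The annotation described the 6 genes unequally. In GENCODE M39, 3 were protein coding (*Rps18-ps6*, *Gm8797* and *Tktl2*) and 3 were pseudogenes (*Ubb-ps*, *Gm44389* and *Gm7002*). *Rps18-ps6*, *Ubb-ps*, *Gm44389*, *Gm7002* and *Gm8797* each had 1 exon, and *Tktl2* had 2. The parents are spliced, with 5 exons in *Rps18*, 2 in *Ubb*, 11 in *Hsp90ab1* and 13 in *Tktl1* in the transcripts compared.

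*Rps18-ps6* (ENSMUSG00000069117.4) had the highest identity to its parent among the 6. *Rps18* encodes a protein of the small ribosomal subunit, and the copy matched it at 99.1% of 545 aligned bases with 5 mismatches. The coding sequence of 456 bases was open in both, and 4 of the mismatches fell in it. The last part of it is shown from base 181 to base 456, counted from the A of the *Rps18* start codon, in GRCm39 with the differing bases in capitals, because these 4 bases are all that separates copy and parent there:
Rps18-ps6: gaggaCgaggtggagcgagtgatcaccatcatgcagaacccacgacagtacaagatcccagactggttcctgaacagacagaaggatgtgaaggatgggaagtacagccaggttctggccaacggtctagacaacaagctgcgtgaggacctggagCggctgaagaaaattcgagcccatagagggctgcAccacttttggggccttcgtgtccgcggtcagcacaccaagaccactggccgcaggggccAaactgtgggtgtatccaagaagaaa
Rps18: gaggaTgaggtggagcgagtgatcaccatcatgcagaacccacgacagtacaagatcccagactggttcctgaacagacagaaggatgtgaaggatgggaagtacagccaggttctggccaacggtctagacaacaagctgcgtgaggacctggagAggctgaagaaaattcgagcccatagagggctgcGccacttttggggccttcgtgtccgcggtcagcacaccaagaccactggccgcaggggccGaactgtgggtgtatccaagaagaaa
The substitutions T186C and A337C left the amino acid as it was, and G371A and G431A changed it, with the base of *Rps18* written first.

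Among the 6 genes, 3 were copies of 1 parent, *Ubb*, which encodes ubiquitin as a run of repeated units in a single reading frame. Ubiquitin is the small protein that is attached to others to mark them for the proteasome or to change their activity. *Ubb-ps* matched *Ubb* at 98.5% of 685 bases, *Gm8797* at 98.2% of 384 bases and *Gm44389* at 95.6% of 183 bases. A stretch that all of them share is 183 bases from the start of a ubiquitin unit of *Ubb*, and which of the repeated units it is was not determined. It is shown with the bases that differ from *Ubb* in capitals:
Ubb: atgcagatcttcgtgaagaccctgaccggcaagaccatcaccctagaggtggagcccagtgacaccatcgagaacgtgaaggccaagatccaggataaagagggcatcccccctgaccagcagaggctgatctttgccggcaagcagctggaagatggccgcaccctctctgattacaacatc
Ubb-ps: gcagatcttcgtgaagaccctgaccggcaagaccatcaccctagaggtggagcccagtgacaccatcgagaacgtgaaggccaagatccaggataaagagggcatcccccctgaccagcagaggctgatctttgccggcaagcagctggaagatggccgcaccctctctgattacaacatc
Gm8797: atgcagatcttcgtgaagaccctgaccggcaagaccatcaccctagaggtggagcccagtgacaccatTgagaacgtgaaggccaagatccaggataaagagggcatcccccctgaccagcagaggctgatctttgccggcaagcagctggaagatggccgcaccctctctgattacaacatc
Gm44389: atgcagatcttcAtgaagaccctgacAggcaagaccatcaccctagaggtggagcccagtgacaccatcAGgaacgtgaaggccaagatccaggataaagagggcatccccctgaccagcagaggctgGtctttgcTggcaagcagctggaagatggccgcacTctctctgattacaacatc
*Ubb-ps* had no difference from *Ubb* over the 181 bases it covers here, *Gm8797* had 1, and *Gm44389* had 7 mismatches and 1 missing base. *Gm44389* ends with this stretch, so its 182 bases are all of the gene as annotated.

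The remaining genes are more distant from their parents. *Gm7002* (ENSMUSG00000114167.1) matched *Hsp90ab1*, which encodes the constitutive cytosolic chaperone HSP90 beta, at 87.5% of 2184 aligned positions with 244 mismatches. Its opening bases, set against those of the *Hsp90ab1* coding sequence, show that differences are spread along it and that 1 base is missing:
Gm7002: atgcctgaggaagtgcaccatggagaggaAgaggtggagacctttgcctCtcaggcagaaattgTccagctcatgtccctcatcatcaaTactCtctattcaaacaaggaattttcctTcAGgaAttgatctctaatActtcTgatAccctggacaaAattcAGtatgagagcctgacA
Hsp90ab1: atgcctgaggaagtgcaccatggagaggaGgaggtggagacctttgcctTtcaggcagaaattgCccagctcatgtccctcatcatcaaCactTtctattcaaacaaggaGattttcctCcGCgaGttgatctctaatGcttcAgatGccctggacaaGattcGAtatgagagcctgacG
*Tktl2* (ENSMUSG00000025519.5) belongs to the transketolases, enzymes that move carbon units between sugars in the pentose phosphate pathway. It matched the X-linked *Tktl1* at 77.0% of 1537 aligned positions and *Tkt* at 68.4% of 1841. It kept an open coding sequence of 1881 bases, and with 33 differences in the 180 bases shown it is easily told from *Tktl1*:
Tktl2: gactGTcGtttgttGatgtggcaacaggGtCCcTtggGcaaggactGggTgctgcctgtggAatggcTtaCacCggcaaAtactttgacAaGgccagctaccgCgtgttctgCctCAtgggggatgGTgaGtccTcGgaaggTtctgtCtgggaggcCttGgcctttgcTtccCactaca
Tktl1: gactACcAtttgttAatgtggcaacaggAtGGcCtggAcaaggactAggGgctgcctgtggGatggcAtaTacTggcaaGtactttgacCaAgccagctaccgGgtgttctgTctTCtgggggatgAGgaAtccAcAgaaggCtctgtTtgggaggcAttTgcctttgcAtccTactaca

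The share of each sequence that also occurs elsewhere in the genome was measured as the share of its words of 50 bases found at another place in GRCm39, on either strand. It was 93.2% for *Ubb-ps*, 84.1% for *Gm8797*, 64.5% for *Rps18-ps6*, 6.0% for *Gm44389*, 0.5% for *Gm7002* and 0.0% for *Tktl2*. The sequences scanned therefore ranged from almost wholly repeated to unique at that length. They are GENCODE M39 transcripts, whereas the counts used GENCODE M18 exons. For *Ubb-ps* 685 bases were scanned and 973 counted, and for *Tktl2* 6268 and 5564, so there the stretch scanned is not the stretch counted. With words of 100 bases the shares of *Ubb-ps*, *Gm8797* and *Rps18-ps6* were 77.1%, 56.5% and 45.5%. The read length is not given in the sources used here, and the counting program at its default leaves out reads that align to several places, so the counts of these genes rest on the reads that covered a difference from every other copy.

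**Figure D1:**
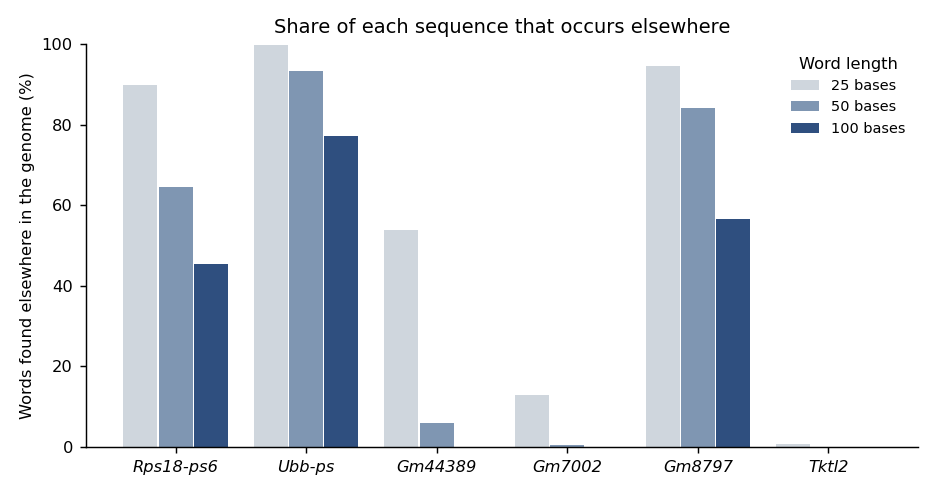
Bars give, for the scanned transcript of each of the 6 genes, the percentage of its words of 25, 50 and 100 bases that occur at another place in the mouse genome. At 50 bases *Ubb-ps* stood at 93.2%, *Gm8797* at 84.1% and *Rps18-ps6* at 64.5%, while *Gm44389*, *Gm7002* and *Tktl2* were at 6.0% or below.

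*Rps18-ps6* was the most abundant of the 6 and had the lowest values in *Dis3* cKO relative to control. In replicates 1 to 5 its raw counts were 4182, 4343, 3736, 4156 and 4218 in control and 7, 11, 13, 9 and 23 in *Dis3* cKO. Every *Dis3* cKO library was thus near 0, with no intermediate library in either group. The mean normalized count was 3798 ± 379 (SD, n = 5) for control and 13.9 ± 7.12 (SD, n = 5) for *Dis3* cKO, which left 0.367% of the control level (log2 fold change -8.08 ± 0.18, SE). The lowest control library stood 120-fold above the highest *Dis3* cKO library. Per kilobase of annotated exon, the copy had 6769 normalized counts in control against 2568 for *Rps18*. The annotated exons of *Rps18* include 2491 bases and several transcripts, whereas its transcript compared here has 560 bases. The order therefore depends on the length used, and before scaling by length the control means were 3798 for the copy and 6397 for *Rps18*. Both counts leave out reads that align to several places.

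The 3 *Ubb* copies were next. *Ubb-ps* (ENSMUSG00000044285.8) had 740, 1251, 988, 1016 and 848 normalized counts in the control replicates 1 to 5, and 59.2, 76.9, 63.7, 67.6 and 87.2 in the *Dis3* cKO replicates. All *Dis3* cKO libraries lay within a narrow band far below control, at 7.32% of its mean (log2 fold change -3.77 ± 0.16, SE). *Gm44389* (ENSMUSG00000107863.1), the short copy, had 289, 260, 203, 148 and 186 normalized counts in control and 8.64, 10.4, 26.8, 4.43 and 11.3 in *Dis3* cKO. These last values stand for 4 to 24 reads per library, and the mean was 5.68% of control (log2 fold change -4.13 ± 0.34, SE). *Gm8797* (ENSMUSG00000103034.1), which keeps an open frame of 231 bases, had 196, 176, 116, 168 and 206 normalized counts in control and 37.0, 47.5, 45.8, 21.0 and 45.3 in *Dis3* cKO. It retained 22.8% of the control mean, the most of the 6 genes, so that "almost lost" describes *Rps18-ps6* better than this copy (log2 fold change -2.12 ± 0.23, SE).

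Because *Gm8797* shares most of its sequence with *Ubb-ps*, with 84.1% of its words of 50 bases found in that gene and 74.6% in *Ubb*, their counts were also set against each other within each library. *Gm8797* had 11.7% to 26.4% of the normalized count of *Ubb-ps* in control and 31.1% to 71.9% in *Dis3* cKO, with no overlap between the groups. *Gm44389* had a median of 20.8% of the count of *Ubb-ps* in control and 13.6% in *Dis3* cKO, where it ranged from 6.56% to 42.1%, and the groups overlapped. *Gm8797* and *Ubb-ps* therefore did not keep a fixed proportion to each other.

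*Gm7002* had 319, 332, 286, 345 and 387 normalized counts in the control replicates 1 to 5 and 92.6, 40.8, 59.3, 65.4 and 64.6 in *Dis3* cKO. Its *Dis3* cKO libraries kept 19.3% of the control mean (log2 fold change -2.38 ± 0.18, SE). *Tktl2* had 118, 131, 134, 144 and 97.4 normalized counts in control and 24.7, 4.75, 10.1, 19.9 and 10.2 in *Dis3* cKO. With 5 to 20 reads in each *Dis3* cKO library, 11.2% of the control mean was left (log2 fold change -3.18 ± 0.32, SE). Both genes have sequence of their own over nearly all of their length, and in both the groups were apart.

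All 6 genes passed the filter, and the groups did not overlap in any of them. Across all genes tested, every *Dis3* cKO library lay below every control library in 4.31%, and 0.0798% had a log2 fold change of -2 or lower. Nothing is read from these shares for the 6 genes, which were chosen by this contrast. Within replicates 1 to 3 the 6 log2 fold changes were -8.35 for *Rps18-ps6*, -3.88 for *Ubb-ps*, -4.03 for *Gm44389*, -2.30 for *Gm7002*, -1.89 for *Gm8797* and -3.33 for *Tktl2*. Within replicates 4 and 5 they were, in the same order, -7.76, -3.58, -4.38, -2.48, -2.49 and -2.98. Every one was negative in both clusters, and the differences between the clusters were not tested.

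**Figure D2:**
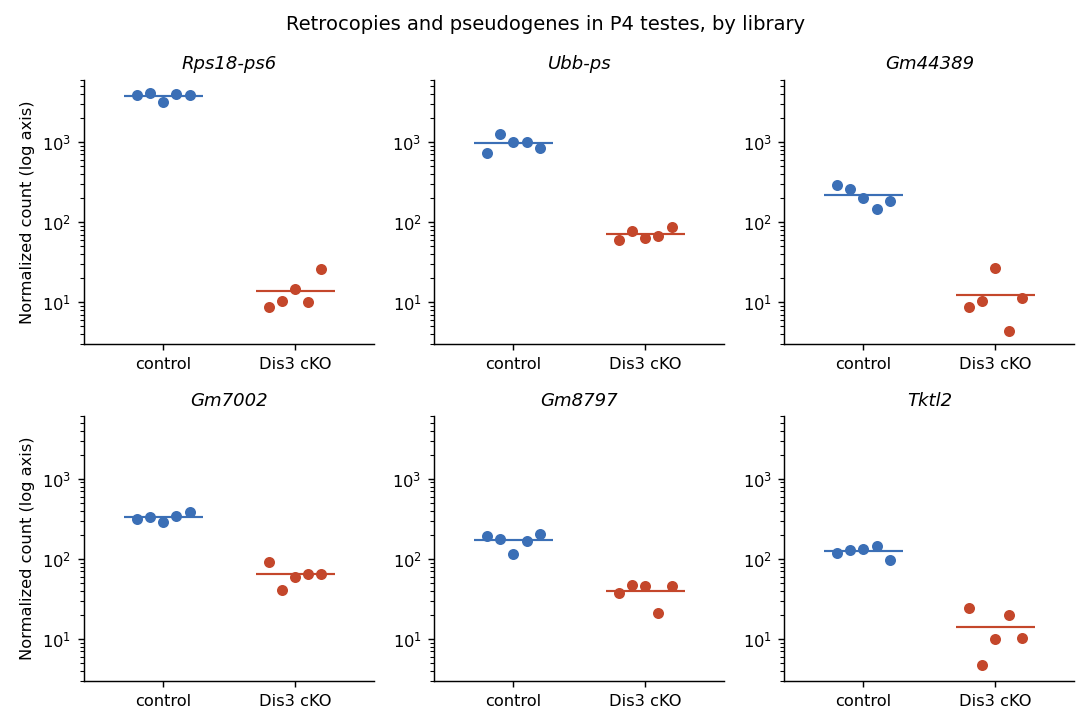
Points are the normalized counts of each library on a log axis, with replicates 1 to 5 from left to right, and lines are group means, for control (blue) and *Dis3* cKO (red), n = 5 each. No *Dis3* cKO library overlapped a control library in any panel, and *Rps18-ps6* went from a mean of 3798 to 13.9.

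The parents were examined in the same libraries. *Rps18* had 5995, 6091, 4714, 7630 and 7554 normalized counts in control and 6744, 6066, 5506, 7271 and 7566 in *Dis3* cKO. Its log2 fold change was 0.05, with a 95% interval from -0.22 to 0.32 (edgeR quasi-likelihood test, adjusted p = 0.851). *Ubb* had 14078 to 17739 normalized counts in control and 14014 to 20140 in *Dis3* cKO, with a log2 fold change of 0.08 and an interval from -0.12 to 0.28 (edgeR, adjusted p = 0.677). *Hsp90ab1* had a log2 fold change of -0.08 (interval -0.23 to 0.07, edgeR, adjusted p = 0.518) and *Tkt* one of 0.04 (interval -0.12 to 0.19, edgeR, adjusted p = 0.807). None of these 4 passed the threshold.

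Of the 5 parents, 1 was called, *Tktl1*, which was lower. Of all genes tested, 7.90% were called, 3.48% lower and 4.42% higher. *Tktl1* had 1171, 1093, 1029, 1322 and 1409 normalized counts in control and 1018, 797, 846, 677 and 759 in *Dis3* cKO. It fell by 0.56 ± 0.11 on the log2 scale (SE, edgeR quasi-likelihood test, adjusted p = 0.0105). The fall of *Tktl1* was 0.31 within replicates 1 to 3, where it was not called, and 0.92 within replicates 4 and 5.

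The size of these parent values can be read against the counts that the copies no longer had. *Rps18-ps6* made up 33.9% to 40.2% of the summed normalized counts of *Rps18* and *Rps18-ps6* in control and 0.128% to 0.343% in *Dis3* cKO. If all 3784 normalized counts missing from *Rps18-ps6* had been counted for *Rps18* instead, its log2 fold change would have been 0.67. The fitted value was 0.05, with an interval of -0.22 to 0.32. Reads that align to several places are left out of both counts, so a move of reads need not appear in *Rps18*. Where the reads went was not tested. For *Ubb*, the 1236 normalized counts missing from its 3 copies equal 7.72% of its control mean and would have given a log2 fold change of 0.11, inside its interval of -0.12 to 0.28. A move of reads from the copies to *Ubb* was thus not detectable at this precision, and for *Gm7002* the 269 missing counts were 0.213% of those of *Hsp90ab1*.

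**Figure D3:**
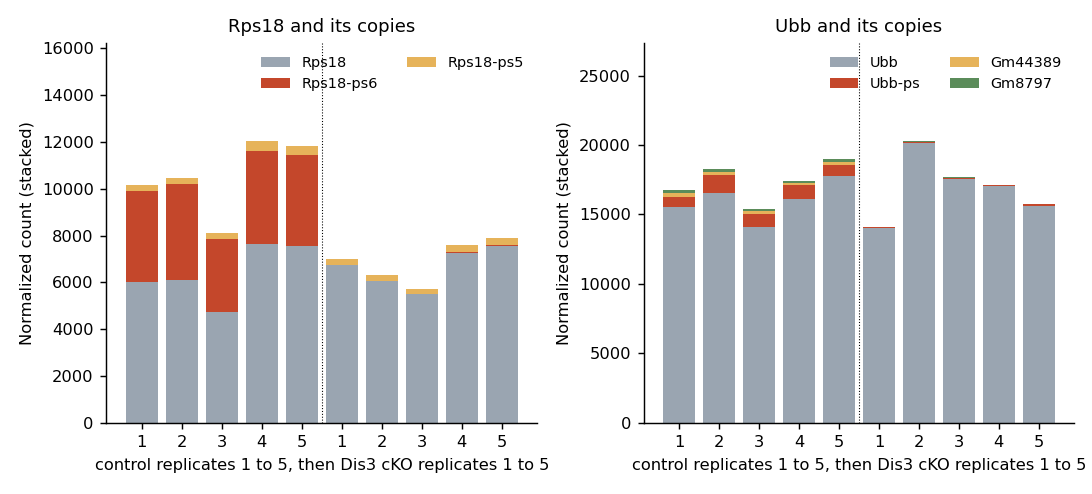
Stacked bars give normalized counts per library of *Rps18* with *Rps18-ps6* and *Rps18-ps5* (left) and of *Ubb* with *Ubb-ps*, *Gm44389* and *Gm8797* (right), for control replicates 1 to 5 and then *Dis3* cKO replicates 1 to 5. The *Rps18-ps6* part (red, left) disappeared in *Dis3* cKO while the *Rps18* part (gray) of *Dis3* cKO lay between 5506 and 7566.

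Other copies of the same parents were also counted. Besides the 6 genes, 59 annotated pseudogenes matched *Rps18*, *Ubb* or *Hsp90ab1* on the same strand over at least 150 bases at 80% identity or more, and 12 of them passed the filter. Of these 12, 1 was called, with lower values (8.33%, against 7.90% of all genes tested), and the 12 had a median log2 fold change of -0.07 and a range from -0.43 to 0.32, against a median of -0.01 over all genes tested. The one called was *Gm6368*, an *Hsp90ab1* copy on the X chromosome (log2 fold change -0.43, edgeR, adjusted p = 0.0127). *Rps18-ps5*, which matched *Rps18* at 99.3% of 456 bases and holds 49.8% of the words of 50 bases of *Rps18-ps6*, had a median of 270 normalized counts in control and 232 in *Dis3* cKO (log2 fold change -0.36, interval -0.75 to 0.03, edgeR, adjusted p = 0.254). The other genes of that name were near 0 in both groups, with at most 11 reads of *Rps18-ps1*, 4 of *Rps18-ps3* and 1 of *Rps18-ps2* in any library.

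Among pseudogenes of ribosomal protein genes in general, 113 besides *Rps18-ps6* were tested. Of these, 0 were called lower in edgeR, against 3.48% of all genes tested. At an unadjusted p under 0.05 in edgeR 6 were lower, a count for which the share of all genes was not taken. DESeq2 called 3 lower, and 942 genes lower in all. Their median log2 fold change was -0.12, against -0.01 over all genes tested. In edgeR 1 was called higher, *Rpl21-ps4*, named here after its value was seen (log2 fold change 0.94, adjusted p = 0.0475), and it lost its call in 9 of the 10 fits that each left out 1 library.

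*Rps27a*, which encodes 1 ubiquitin fused to a ribosomal protein, had 1034 to 1765 normalized counts in control and 590 to 1149 in *Dis3* cKO. It fell by 0.66 ± 0.17 on the log2 scale (SE, edgeR, adjusted p = 0.0332). Its groups overlapped, and it lost its call in 6 of the 10 fits that each left out 1 library, with adjusted p up to 0.088.

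In the pentose phosphate pathway, which makes ribose and reducing power from glucose, 1 of 8 listed genes was called, *Tktl1* (12.5%, against 7.90% of all genes tested). The other 7 lay between -0.30 for *Pgls* and 0.04 for *Tkt*. Among 7 well-known autosomal retrogenes of X-linked genes, 6 were tested and 0 were called in edgeR, with log2 fold changes from -0.58 for *Pdha2* to 0.46 for *Rbmxl2*. *Pgk2*, active in later germ cells, was the one below the filter. Their 7 X-linked parents lay between -0.30 for *Pgk1* and 0.04 for *Rbmx*, and 0 were called, against 7.90% of all genes tested. At an unadjusted p under 0.05 in edgeR, 6 of these 13 genes passed. The share of all genes at that unadjusted p was not taken, so nothing is read from this count. DESeq2 called 1 of the 13, and 942 genes lower and 1310 higher in all.

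**Figure D4:**
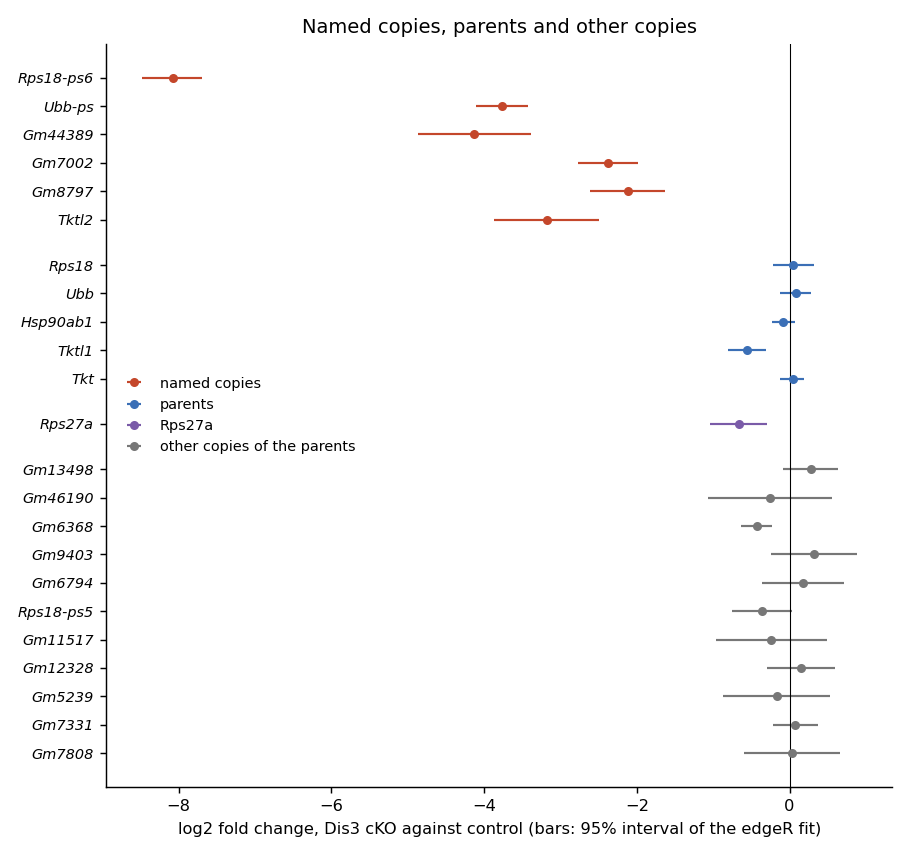
Points are log2 fold changes of *Dis3* cKO against control and bars their 95% intervals, for the 6 genes (red), the parents (blue), *Rps27a* (purple) and 11 of the 12 other tested copies of the parents (gray). The 6 genes lie between -8.08 and -2.12, and the other copies between -0.43 and 0.32.

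The 6 genes lie on 6 different chromosomes. In GRCm38, the build of the counts, *Rps18-ps6* is at chr13:97760072-97760632 on the minus strand, 14.8 Mb from *Ddx4* (chr13:112598333-112652475), whose promoter drives the Cre transgene. The place where that transgene is inserted was not examined. *Ubb-ps* is at chr14:46084028-46085000 on the plus strand, 53.0 Mb from *Dis3* (chr14:99075206-99099770), the locus with the floxed and deleted alleles. *Gm8797* (chr3:5750806-5751295, plus), *Gm44389* (chr6:60461933-60462114, minus), *Tktl2* (chr8:66511756-66518335, plus) and *Gm7002* (chr12:35772951-35775115, plus) share no chromosome with either gene. Of the 6, 1 overlapped another annotated gene. *Rps18-ps6* lies within the antisense noncoding gene *Rps18-ps4*, which had 1 to 6 reads per control library and 0 or 1 per *Dis3* cKO library.

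Most genes beside the 6 were not called. Within 1 Mb, 74 other genes were tested, of which 2 were called lower and 2 higher (5.41%, against 7.90% of all genes tested), with a median log2 fold change of -0.14. Beside *Rps18-ps6*, with 21 neighbors tested, *Fam169a* fell by 0.67 (edgeR, adjusted p = 0.018) and *Ankrd31*, a gene of meiotic recombination, fell by 0.41 (edgeR, adjusted p = 0.022), at 629 and 850 kb. *Ankrd31* lost its call in 4 of the 10 fits that each left out 1 library (adjusted p up to 0.0563). The nearest tested genes on the 2 sides were the noncoding *Gm41031* at 35.5 kb, with a log2 fold change of -1.41 ± 0.67 (SE, edgeR, adjusted p = 0.219), and *Lncenc1* at 263 kb with -0.20.

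Beside *Ubb-ps*, 26 genes were tested and 1 passed, the noncoding *Gm10101*, which rose by 1.67 ± 0.48 (SE, edgeR, adjusted p = 0.0498) from means of 8.53 to 27.2 normalized counts and lost its call in 9 of the 10 such fits. The nearest tested genes on the 2 sides, *Gm6580* and the growth factor gene *Bmp4*, had log2 fold changes of -0.22 and 0.20 and were not called. *Gm8797* had 3 tested neighbors, of which the transcription factor gene *Zfhx4* rose by 0.54 ± 0.06 (SE, edgeR, adjusted p = 0.000526), while the other two, *Pex2* and *Gm6162*, were at -0.06 and 0.11. No neighbor was called among the 3 of *Gm44389*, the 14 of *Gm7002* or the 7 of *Tktl2*. The nearest tested genes on the 2 sides were *Ahr* and *Tspan13* at -0.21 and 0.04 beside *Gm7002*, and *Tma16* and *Npy1r* at -0.25 and 0.54 beside *Tktl2*.

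**Figure D5:**
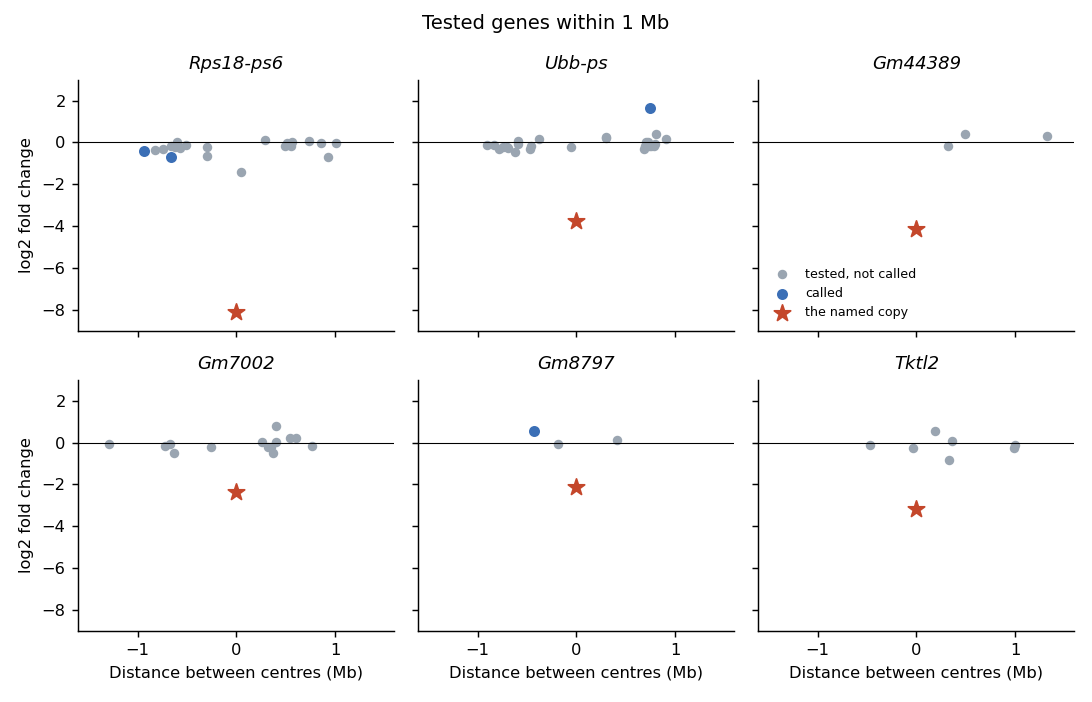
Each panel places the tested genes within 1 Mb of 1 of the 6 genes (star at 0) by the distance between centers in Mb and by log2 fold change, with called genes in blue. The 6 genes were chosen by this contrast, so nothing is read from the star being the lowest point in every panel. The neighbors lie between -1.41 and 1.67.

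Upstream regions counted on the opposite strand, where the exosome is known to remove promoter upstream transcripts, were in the second table for 5 of the 6 genes. They held 0 to 10 reads per library, with 10 reads in all 5 control libraries together and 17 in *Dis3* cKO for *Ubb-ps*, 28 and 17 for *Gm44389*, 4 and 6 for *Gm7002*, 8 and 15 for *Gm8797*, and 6 and 2 for *Tktl2*. These regions were not tested.

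Across the 10 libraries the genes whose log2 CPM (prior count of 2) followed each of the 6 most closely were taken from the 14752 tested genes with a mean of 50 or more, the 6 themselves left out. The libraries of a group share their genotype, so these values carry the difference between the groups and are descriptive. Among these genes, *Dis3* was closest to *Rps18-ps6* (Pearson r = 0.988) and to *Ubb-ps* (r = 0.984), followed for both by *Ankle2* and *Pak1* (r of 0.975 to 0.979). *Pak1*, a kinase gene, was also closest to *Gm44389* (r = 0.972), before *Tmem14c* and *Atp6v1b2*. *Rps4l*, itself a copy of a ribosomal protein gene, was closest to *Gm8797* (r = 0.972), with *Gadd45gip1* and *Pak1* next. *Gm7002* was closest to *Meioc*, which keeps germ cells in the meiotic program, and to *Tex16* (both r = 0.977) and *Bend2*, and *Tktl2* to *C2cd6* (r = 0.973), *Snx16* and *Ttc12*. Among the 6, *Rps18-ps6* and *Ubb-ps* had r = 0.993, *Gm7002* and *Tktl2* r = 0.980, and *Gm8797* and *Tktl2*, the least alike, r = 0.838.

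Of 14 germ cell markers, all detected, 4 were called, each lower (28.6%, against 3.48% of all genes tested called lower), with a list median of -0.31 on the log2 scale. *Stra8*, which is induced by retinoic acid before meiosis, fell by 0.89, the piRNA pathway genes *Mael* and *Piwil2* fell by 0.76 and 0.39, and *Dazl*, an RNA-binding protein gene of germ cells, fell by 0.67 (edgeR, adjusted p = 0.00192, 0.00326, 0.0232 and 0.00292). In replicates 1 to 3 the log2 fold changes of *Stra8*, *Mael*, *Piwil2* and *Dazl* were -0.65, -0.57, -0.25 and -0.51, and in replicates 4 and 5 they were -1.24, -1.10, -0.62 and -0.87. The other 10 were not called, among them *Etv5*, *Gfra1* and *Nanos2* at 0.17, 0.07 and 0.09 and *Sall4* and *Kit*, both at -0.08. *Piwil2* lost its call in 4 of the 10 fits that each left out 1 library (adjusted p up to 0.0623). *Ddx4* had a log2 fold change of -0.26 (edgeR, adjusted p = 0.323), which was 0.16 in replicates 1 to 3 and -0.84 in the other 2 of each group. In a plain sum of the 14 the abundant genes weigh most, among them *Dazl* and *Mael*. Their means were 8398 and 5269 normalized counts in control and 5266 and 3112 in *Dis3* cKO. The summed level of the 14 ranged from 27825 to 32836 normalized counts in control and from 19704 to 26033 in *Dis3* cKO. The part of this difference in the values of the 6 genes was not tested, and whether the 6 genes are transcribed in germ cells alone cannot be read from whole testes. Of the 23 somatic markers, 3 were called, against 7.90% of all genes tested. The endothelial *Cdh5* and the myoid *Myh11* rose by 0.31 and 0.52, and the Leydig *Cyp17a1* fell by 0.40 (edgeR, adjusted p = 0.0389, 0.0265 and 0.0271). The other 20, among them all 6 of Sertoli cells, were not called. *Myh11* had 0.21 in replicates 1 to 3 and 1.02 in replicates 4 and 5. Those 3 calls were lost in 8, 5 and 5 of the 10 such fits.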

How the data were processed

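Testes of 10 mice were sequenced (TECAN Universal RNA-Seq kit, random and poly(T) priming, strand kept, ribosomal RNA depleted with AnyDeplete), 5 per group, grouped by genotype labels. The labels do not say which mice shared a litter, and each library is a different mouse, so n counts mice. The authors' steps were trimming (cutadapt), alignment (HISAT2) and counting, and they deposited raw counts per gene and per upstream region. Per the file headers, featureCounts 1.6.4 counted reads on the gene's strand in GENCODE M18 (GRCm38), whereas the methods name later releases. Positions printed are GRCm38. Symbols, biotypes and sequences came by gene ID from GENCODE M39 (GRCm39), which named 50129 of 54232 genes with 99.0% of counts.

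The members and lists were chosen with earlier results of these data known. Genes were filtered with filterByExpr (min.count 10, min.total.count 15), normalized by TMM and tested with edgeR 4.0.16's quasi-likelihood test in R 4.3.3 (two-sided, Benjamini-Hochberg over 20043 genes, adjusted p under 0.05). Log2 fold changes are from this fit, and an interval is 95%. DESeq2 1.42.0, other filters and scalings, a replicate block, a term for the clusters of libraries and fits without each library were alternatives. The fits were tested on simulated data. Copies of the parents were found by sequence alignment, and the parent of a Gm gene is the protein-coding gene matching it best. Named are the 6 genes, *Dis3*, *Ddx4*, the parents, other *Rps18-ps* genes, the family, pathway and retrogene lists, the nearest and the called neighbors within 1 Mb, the 3 closest genes in pattern, and the 3 next lowest called genes with a mean of 50 or more. *Rpl21-ps4*, *Gm6368* and the pseudogenes of the closing section were named after their values were seen. Some genes of the fixed lists and neighbors are not reported here. At 28538849 to 41104912 counts per library, genes with a few reads per library are imprecise.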

Additional observations from a re-analysis of the deposited data

Results flagged for a closer look

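Among 24 sets of 5 libraries (the 6 genes, *Dis3* and the 5 parents in each group), 2 held a library whose gap to the others exceeded 0.71 of the range, Dixon's critical value for 5 samples, which chance exceeds in about 1 of 20 sets. *Rps18-ps6* had 3137 normalized counts in control replicate 3, against 3876 to 4094 in the other 4 control libraries, still far above every *Dis3* cKO library. *Tkt* had 7106 normalized counts in the same control library, against 6336 to 6544 in the others.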

How the results depend on the processing

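The log2 fold changes of the 6 genes stayed negative and within 1 SD between replicates in all 102 refits, with ranges of -8.43 to -7.76 for *Rps18-ps6*, -3.88 to -3.58 for *Ubb-ps*, -4.62 to -3.91 for *Gm44389*, -2.54 to -2.25 for *Gm7002*, -2.49 to -1.89 for *Gm8797* and -3.48 to -2.94 for *Tktl2*. The refits reuse the libraries by which the 6 genes were chosen, so they describe the dependence on processing only. Counts of calls moved far more, for causes that were not tested. With a replicate block, 1337 genes were called lower and 1489 higher, and 8 neighbors, 6 ribosomal protein pseudogenes, 2 pentose phosphate genes and 2 of the retrogenes with their parents were called. Same-numbered libraries correlated at 0.0826 to 0.183, and 3 of 5 controls correlated best with their own number, so the numbers were not taken as pairs. With a term for the clusters, 1669 were lower and 1772 higher, with 12 neighbors, 7 ribosomal protein pseudogenes, 3 pentose phosphate genes, 5 of the retrogenes with their parents and, in an alternative chosen after seeing the data, 2 copies of the parents. Replicates 4 and 5 alone gave 2360 lower and 2361 higher, 15 neighbors, 11 ribosomal protein pseudogenes, 4 of the retrogenes with their parents and 2 parents, and replicates 1 to 3 alone 0 parents. DESeq2 called 942 genes lower and 1310 higher, with 4 ribosomal protein pseudogenes and 1 of the retrogenes with their parents. No filter on low counts gave 750 lower and 768 higher, with 4 ribosomal protein pseudogenes. A window of 0.25 Mb held 0 called neighbors of 9 tested and one of 5 Mb held 37 of 397 (9.32%). Leaving out 1 library gave 366 to 806 genes lower, 516 to 1173 higher, 2 to 4 neighbors, 0 to 2 ribosomal protein pseudogenes, 1 to 2 pentose phosphate genes and 0 to 2 of the retrogenes with their parents. The fall of *Dis3* ranged from -1.67 to -1.58 on the log2 scale. Reads that align to several places were left out of the counts, so levels of *Ubb-ps*, *Gm8797* and *Rps18-ps6* depend on the read length, which was not examined.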

Other observations

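Of 1775 annotated pseudogenes tested, 27 were called lower and 15 higher, while 3.48% of all genes tested were called lower and 4.42% higher. A log2 fold change of -2 or lower was reached by 9, of which 3 are among the 6 genes, and one of 2 or higher by 5, against 16 and 70 of all genes tested. Outside the 6, *Eif5al3-ps*, a copy of a translation factor gene, had 29.4 to 85.4 normalized counts in control and 5.70 to 24.6 in *Dis3* cKO (log2 fold change -2.44, edgeR, adjusted p = 0.00299). *Gm18733* on chromosome 17 had 15.3 to 30.2 in control, was at 0 in 4 *Dis3* cKO libraries and at 2.24 in the other (log2 fold change -5.31, edgeR, adjusted p = 0.000796). *Eif5al3-ps* and *Gm18733* averaged under 50 normalized counts, so the ranking that placed the 6 genes lowest left them out. In the opposite direction, *Gm6345* had 33.5 to 55.4 in control and 185 to 272 in *Dis3* cKO (log2 fold change 2.25, edgeR, adjusted p = 1.07e-05), and *Mettl4-ps1* had 2.88 to 16.8 and 45.3 to 96.3 (log2 fold change 2.57, edgeR, adjusted p = 0.00169).

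Some pseudogenes had high values in libraries of 1 cluster only. *H2af-ps2* had 2055, 2597 and 3016 normalized counts in *Dis3* cKO replicates 1 to 3, but 18.8 and 13.6 in *Dis3* cKO replicates 4 and 5, and 21.1 to 52.9 in control. *Gm46432* had 155 and 130 in control replicates 4 and 5 and 10.1 to 18.5 in the other libraries. *Gm8199* had 89.8 to 122 in control replicates 1 to 3 and 14.8 to 42.7 in *Dis3* cKO replicates 1 to 3, and at most 1.13 in replicates 4 and 5 of both groups. *Rps15a-ps6* had 54.6 and 57.0 in control replicates 4 and 5 and 0.950 to 13.1 elsewhere. Each of the 6 genes, which were chosen by this contrast, was low in all 5 *Dis3* cKO libraries and high in all 5 control libraries. *Eif5al3-ps* and *Gm18733* also had every *Dis3* cKO library below every control library.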
